A study of Rattus norvegicus with 12 samples.

Results

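Ndfip2 and Trim2 were each measured by 1 probe on rat circular RNA (circRNA) arrays, hybridised with kidney RNA from 12 male rats. The probes were taken by name, A_44_P1047638 with the RefSeq accession NM_001108390 (Ndfip2) and A_44_P761041 with NM_001108552 (Trim2). They are 2 of 62 probes with a transcript accession among 14227 probes that are not controls. Of these 62, 55 were bright enough to test, and both genes were among them. Where on the transcript each probe lies was not analysed here, so whether a probe also reads circular transcripts of its gene was not tested.

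The 4 strains were the Dahl salt-sensitive rat (S), the Dahl salt-resistant rat (R), the spontaneously hypertensive rat (SHR) and the Wistar Kyoto rat (WKY), with 3 rats of each. S and SHR are models of hypertension, and R and WKY are the strains usually compared with them. Every rat was weaned onto a 0.3% NaCl diet at 28 to 30 days and killed at 57 days of age, with no further treatment and no transgene. Before labelling, all RNA was digested with RNase R, an exonuclease that removes linear RNA, so an mRNA signal here is what was left after digestion.

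Ndfip2 encodes a membrane-bound adaptor that recruits and activates HECT-type ubiquitin ligases of the Nedd4 family. In the distal nephron and collecting duct, Nedd4l of this family tags the epithelial sodium channel for removal from the cell surface and so limits sodium reabsorption. Trim2 encodes a RING-type ubiquitin ligase, best known from neurons, where it acts on neurofilament light chain. Ubiquitin ligases are the enzymes that pass ubiquitin to a chosen substrate, and an adaptor helps to choose it.

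The reference promoters of both genes are shown because both genes were high on the same arrays. They are the 250 bases before the transcription start in RefSeq's GRCr8 table, which describes the BN reference rat and not the 4 strains. Both starts lie inside the span the same assembly gives the gene, so other transcripts begin elsewhere. Capitals mark motif matches.

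Ndfip2, chr15:88446682-88446931, plus strand: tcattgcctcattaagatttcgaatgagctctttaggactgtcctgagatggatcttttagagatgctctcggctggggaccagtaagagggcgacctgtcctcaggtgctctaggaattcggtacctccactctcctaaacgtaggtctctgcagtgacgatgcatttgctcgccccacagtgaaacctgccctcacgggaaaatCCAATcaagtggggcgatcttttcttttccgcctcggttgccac
Trim2, chr2:171862445-171862694, minus strand: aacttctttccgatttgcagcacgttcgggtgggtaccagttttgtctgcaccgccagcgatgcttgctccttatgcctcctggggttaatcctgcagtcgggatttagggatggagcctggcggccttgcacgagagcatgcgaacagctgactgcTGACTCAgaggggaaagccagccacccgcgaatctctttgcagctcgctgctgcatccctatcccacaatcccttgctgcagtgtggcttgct

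The windows were searched on both strands for the core promoter motif TATAAA, the motif CCAAT bound by the factor NF-Y, the motif GGGCGG bound by the factor Sp1, the E-box CACGTG, the AP-1 motif TGACTCA and the steroid receptor half-site AGAACA. None of the 6 contains another. Ndfip2 held 1 match, the NF-Y motif, which starts 44 bases before the transcription start, and 34% of 33469 rat promoter windows of the same length hold one. Trim2 held 1 match, the AP-1 motif, which starts 93 bases before the start, which 4.05% of windows hold. The windows shared no motif of the 6. A match is a stretch of letters and was not tested as a binding site.

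Signals were low for both genes. The mean background-subtracted intensity per array ran from 2.53 to 64.4 for Ndfip2 and from 2.97 to 79.3 for Trim2, over 10 spots per probe. For Ndfip2 the median raw brightness of the spots was 38.3 on S rat 1 over a local background of 23.5, and 106 on WKY rat 3 over 27.8. The lowest signal that Feature Extraction called well above background was 6.55 to 10.1 on these arrays. A probe was counted as above background on an array when more than 50% of its spots were, which held on 10 of 12 arrays for each gene. An outlier flag removed 5 spots of Ndfip2 and 7 of Trim2 in all. No spot of either gene was saturated.

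The arrays that missed this rule were S rats 1 and 3. S rat 1 had 0 of 10 spots above background for both genes. S rat 3 had 1 of 10 for Ndfip2 and 5 of 10 for Trim2. S rat 2 had 9 of 10 and 8 of 10. SHR rat 2 had 8 of 10 for Ndfip2 and 10 of 10 for Trim2, and every other array had 10 of 10 for both. So the S mean rests on 1 array with a measured signal, and S differences below are read with that limit.

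S rat 1 was also the dimmest array over circRNAs, whose 75th percentile was 6.22 log2 units there and between 7.02 and 8.15 elsewhere. All S and R arrays and WKY rats 1 and 2 shared a scan date, taken here as slide 1. WKY rat 3 and the SHR arrays shared another, taken as slide 2. Among 16 kidney marker genes listed only Cyp2e1 (a cytochrome P450 of the proximal tubule) had a probe, above background on all 12 arrays. That 1 gene does not by itself show kidney identity. Of 6 leukocyte markers only Nlrp3 had a probe, with levels of -4.66 to -3.41 over all rats and overlapping strains. Markers of endothelium (4), fibroblasts and smooth muscle (3), red cells (2) and adrenal (3) had none.

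Levels are log2 intensities minus the circRNA 75th percentile of the same array. Ndfip2 stood at -4.99, -4.69 and -4.65 in S rats 1 to 3 and at -3.90, -3.91 and -4.08 in R rats 1 to 3. It stood at -1.86, -4.79 and -2.42 in SHR rats 1 to 3 and at -2.73, -1.55 and -1.83 in WKY rats 1 to 3. WKY and SHR rats 1 and 3 were high and S was low. SHR rat 2 as read lay within the range of S, but S rats 1 and 3, the ends of that range, were not above background. Their detection limits, -3.09 and -4.10, lie above SHR rat 2, so its order against these 2 rats was not measured. The mean of S was -4.78 ± 0.19 (SD, n = 3) and that of R -3.97 ± 0.10. SHR had a mean of -3.02 ± 1.55 and WKY of -2.04 ± 0.62.

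Trim2 stood at -4.74, -4.63 and -4.09 in S rats 1 to 3 and at -3.62, -4.27 and -3.92 in R rats 1 to 3. It stood at -2.03, -3.35 and -1.87 in SHR rats 1 to 3 and at -2.09, -1.50 and -1.53 in WKY rats 1 to 3. Every SHR and WKY rat was above every R rat and above S rats 2 and 3, and SHR rat 2 was the lowest of these 6. S rat 1 had no spot above background, and the detection limit of its array, -3.09, lies above SHR rat 2, so the order of these 2 rats was not measured. The mean of S was -4.49 ± 0.35 (SD, n = 3) and that of R -3.93 ± 0.32. SHR had a mean of -2.42 ± 0.81 and WKY of -1.71 ± 0.33. Within an array the SD over spots had a median of 0.17 log2 units for Ndfip2 and 0.15 for Trim2.

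**Figure D1:**
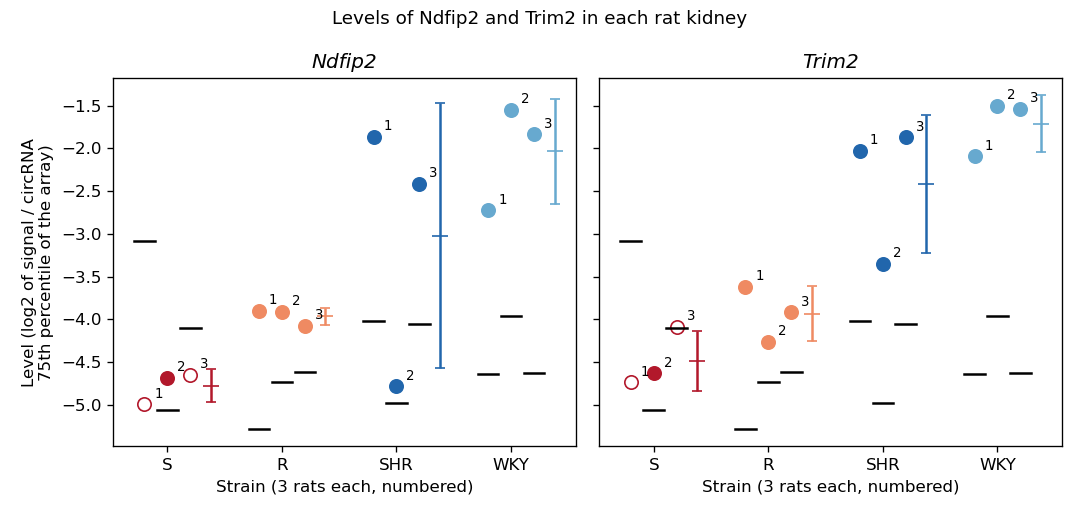
Level of each gene (y axis, log2 relative to the circRNA 75th percentile of the array) in each rat, by strain. Numbered points are rats 1 to 3, open where at most 50% of spots were above background. Black ticks give the array's lowest signal above background, and the bars beside the points give the strain mean with its SD. The WKY mean is the highest for both genes, S rats 1 and 3 are the open points, and SHR rat 2 sits at -4.79 for Ndfip2 and -3.35 for Trim2.

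The order of the means was S, R, SHR, WKY for both genes. No neighbours in this order differed in limma's test (Benjamini-Hochberg over the 55 mRNA probes, threshold 0.05). For Ndfip2 the adjusted p was 0.683 for S vs R, 0.236 for R vs SHR and 0.777 for SHR vs WKY. For Trim2 it was 0.683, 0.0906 and 0.777. A p above the threshold does not show that the neighbours are alike, and the intervals below give the sizes that remain possible.

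R vs WKY compared the normotensive strains, and both genes were lower in R. Ndfip2 was 3.81-fold lower (log2 difference -1.93, SE 0.65, adjusted p = 0.0259, limma). Trim2 was 4.67-fold lower (log2 difference -2.22, SE 0.45, adjusted p = 0.0126, limma). All 3 R rats lay below all 3 WKY rats for each gene, and all 6 arrays had both genes above background. In this comparison 33 of the 55 mRNA probes (60.0%) were called, 31 of them (56.4%) lower in R, and 41 (74.5%) had no overlap between the strains. The median difference over the 55 was -1.75, and 24 probes had a more negative difference than Ndfip2 and 17 a more negative one than Trim2. By p-value Ndfip2 ranked 25 and Trim2 1 of the 55.

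The Ndfip2 call in R vs WKY was lost without any one of R rats 1 to 3 or WKY rats 2 and 3 (adjusted p 0.0542 to 0.0944, limma), with 0 to 17 of the 55 mRNA probes called. It was also lost when circRNAs were fitted in the same table (0.0927). The Trim2 call was lost without R rat 2, WKY rat 2 or WKY rat 3 (0.0616 to 0.0816). In these fits 0 of 55 mRNA probes were called, and the Trim2 difference was -2.06, -2.12 and -2.14. The Trim2 call held with circRNAs in the same fit (0.0283). From slide 1 alone, with 2 WKY rats, both were called, at -1.83 for Ndfip2 (adjusted p = 0.0105) and -2.14 for Trim2 (adjusted p = 0.00736), beside 54.5% of the mRNA probes. With all 12 arrays and slide as a block the differences were the same and both calls were lost (adjusted p = 0.0805 for Ndfip2 and 0.0651 for Trim2, limma), with 0 of 55 probes called (0.00%).

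S vs SHR compared the models of hypertension directly. Trim2 was lower in S with a log2 difference of -2.07 (SE 0.45, adjusted p = 0.00997, limma). The values as read did not overlap, but with S rat 1 at its detection limit of -3.09 it would lie above SHR rat 2, and no fold is given since 2 of the 3 S values were not above background. Ndfip2 was lower in S with a log2 difference of -1.75 (SE 0.65, adjusted p = 0.0485, limma). SHR rat 2 as read lay inside the S range, whose ends are S rats 1 and 3, not above background for Ndfip2. Of the 55 mRNA probes 23 (41.8%) were called, 22 (40.0%) lower in S, 16 (29.1%) had no overlap, and the median difference was -1.53. The S arrays are all of slide 1 and the SHR arrays of slide 2, and only WKY joins the slides. With slide as a block the differences were -1.81 for Trim2 and -1.45 for Ndfip2, both with an adjusted p of 0.523, and 0 of 55 mRNA probes were called.

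The Ndfip2 call in S vs SHR was lost in 10 of 12 fits that left out 1 rat, all but those without WKY rat 1 or SHR rat 2, with an adjusted p of 0.0557 to 0.224. In those 10 fits 1 to 18 of 55 mRNA probes were called. Without SHR rat 2 the Ndfip2 difference was -2.64 (adjusted p = 0.000195, limma), and 42 of 55 mRNA probes (76.4%) were called. The Trim2 call was lost without S rat 1, SHR rat 1 or SHR rat 3 (adjusted p 0.0518 to 0.0553), with 1 to 3 of 55 mRNA probes called. It was also lost with only S and SHR fitted (0.0776), with 0 of 55 called. Since S rats 1 and 3 were dim, values below each array's lowest signal above background were also raised to it. The differences then were -1.52 for Trim2 (adjusted p = 0.0593) and -0.93 for Ndfip2 (adjusted p = 0.303).

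S vs WKY shares its WKY arrays with R vs WKY. Ndfip2 was lower in S with a log2 difference of -2.74 (SE 0.65, adjusted p = 0.00454, limma). Trim2 was lower in S with a log2 difference of -2.78 (SE 0.45, adjusted p = 0.00271, limma). No S rat overlapped a WKY rat for either gene, and the detection limit of S rat 1 also lies below every WKY rat. Of the 55 mRNA probes 39 (70.9%) were called, 37 (67.3%) lower in S, 42 (76.4%) had no overlap, and the median difference was -1.94. With dim values raised to the limit of their array, both calls held at -1.92 (adjusted p = 0.0377) and -2.23 (adjusted p = 0.00596), beside 47.3% of the mRNA probes. Without S rats 1 and 3 both calls were lost, at -2.65 (adjusted p = 0.154) and -2.92 (adjusted p = 0.105), with 0 of 55 probes called (0.00%) and 1 S rat left.

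Between each hypertensive strain and its usual counterpart neither gene differed past the threshold. S minus R was -0.81 (95% interval -2.23 to 0.60) for Ndfip2 and -0.55 (-1.55 to 0.44) for Trim2. All S rats lay below all R rats for Ndfip2, as in 8 of 55 mRNA probes (14.5%), and the Trim2 values overlapped. With dim values raised to the limit the Ndfip2 difference was 0.0085, so the order of S and R was not measurable at these signals. SHR minus WKY was -0.99 (-2.40 to 0.43) for Ndfip2 and -0.71 (-1.70 to 0.29) for Trim2, and the strains overlapped for both. SHR rat 2 set much of this gap, which without it was -0.11 for Ndfip2 and -0.24 for Trim2. Without SHR rat 1 the Ndfip2 difference was -1.57. Limma called 0 of 55 probes (0.00%) in both comparisons, with 3 and 0 at an unadjusted p under 0.05, and 1 of 55 (1.82%) had no overlap in SHR vs WKY.

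R minus SHR was -0.94 (95% interval -2.36 to 0.47) for Ndfip2 and -1.52 (-2.51 to -0.52) for Trim2. The strains overlapped for Ndfip2 and not for Trim2, which was 1 of 13 mRNA probes (23.6%) without overlap. Limma called 0 of 55 (0.00%), with 26 at an unadjusted p under 0.05. Leaving out SHR rat 2 changed this: without it the differences were -1.82 for Ndfip2 (adjusted p = 0.0017) and -1.98 for Trim2 (adjusted p = 0.000939), and 35 of 55 mRNA probes (63.6%) were called. The R arrays are all of slide 1 and the SHR arrays of slide 2. With slide as a block the differences were -0.64 for Ndfip2 (adjusted p = 0.787, limma) and -1.26 for Trim2 (adjusted p = 0.733). S minus R, less the gap of SHR to WKY, was 0.18 (-1.82 to 2.18) for Ndfip2 and 0.16 (-1.25 to 1.56) for Trim2, with 0 of 55 probes called (0.00%) and 2 at an unadjusted p under 0.05.

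Both genes followed the average mRNA-probe signal of the array, which not every mRNA probe did. The median of the other 53 mRNA probes ran from -2.45 to -2.19 in S and from -2.11 to -1.94 in R. It ran from -2.07 to -0.75 in SHR and from -1.27 to -0.081 in WKY. The lowest SHR value of -2.07 was again rat 2. Over the 12 arrays the level of Ndfip2 correlated with the mean of the 54 other mRNA probes at Pearson's r = 0.98 (Spearman's rho = 0.91), and Trim2 at r = 0.95 (rho = 0.94). The 12 points share array, digestion and labelling, and fall into a low set (S, R and SHR rat 2) and a high set, so these values describe that gap. In whole kidney, fewer cells with the transcript and less transcript per cell cannot be told apart. The part that linear RNA left after RNase R had in the strain differences was not tested.

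**Figure D2:**
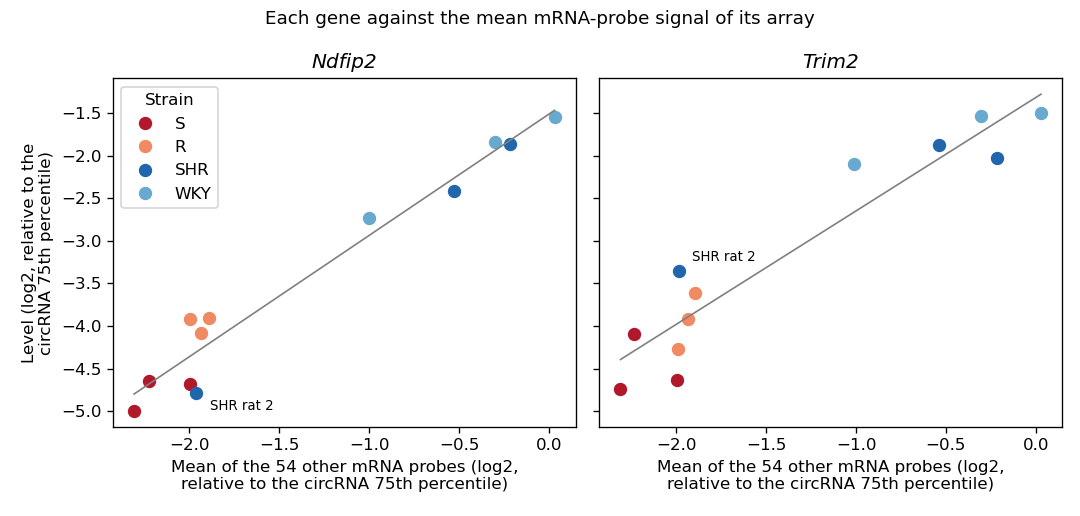
Level of each gene (y axis, log2) against the mean of the 54 other mRNA probes on the same array (x axis, log2), both relative to the circRNA 75th percentile. Points are the 12 rats coloured by strain, and the grey line is a least-squares line. WKY and SHR rats 1 and 3 form the upper set, and SHR rat 2 lies with S and R, below the line for Ndfip2 and above it for Trim2.

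To ask how the genes stood among other linear RNAs, each level was taken relative to the median of the 54 other mRNA probes of the array. Ndfip2 then had a mean of -2.44 ± 0.062 (SD, n = 3) in S and of -1.89 ± 0.13 in R. Its mean was -1.74 ± 0.82 in SHR and -1.27 ± 0.21 in WKY. Trim2 had a mean of -2.15 ± 0.23 in S and of -1.86 ± 0.30 in R. Its mean was -1.13 ± 0.19 in SHR and -0.94 ± 0.32 in WKY. The order of the strains was as before, with smaller gaps.

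S vs WKY kept its call for both genes on this scale, with differences of -1.17 for Ndfip2 (SE 0.41, adjusted p = 0.0333, limma) and -1.20 for Trim2 (SE 0.35, adjusted p = 0.0153), beside 29 of 55 mRNA probes called (52.7%). Trim2 kept its call in S vs SHR at -1.01 (SE 0.35, adjusted p = 0.0492), where 14 of 55 (25.5%) were called. Ndfip2 lost it at -0.70 (adjusted p = 0.184). In R vs WKY neither passed, with -0.92 for Trim2 (adjusted p = 0.0535) and -0.62 for Ndfip2 (adjusted p = 0.221), and 11 of 55 (20.0%) were called. With the mean of the other mRNA probes as a covariate no call was left for either gene, and 0 of 55 mRNA probes were called in R vs WKY, S vs SHR and S vs WKY. Ndfip2 changed sign in R vs WKY (0.38) and S vs SHR (0.19) and was -0.069 in S vs WKY. Trim2 kept its sign in these pairs, at -1.07, -1.10 and -1.44. The S calls relative to the median of the other mRNA probes also rest on readings not above background in S rats 1 and 3. S rat 1 had a detection limit of -3.09 beside a median of -2.50, which here lies above every WKY and SHR rat. Raising dim values to the limit was not run on this scale, so the order of S rat 1 and these rats was not measured.

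**Figure D3:**
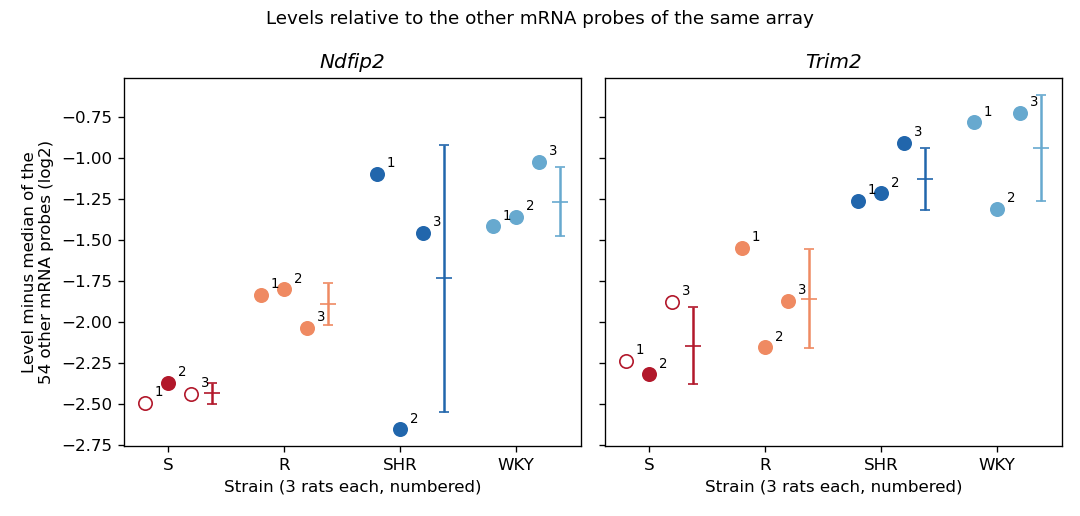
Level of each gene minus the median of the 54 other mRNA probes of the array (y axis, log2) in each rat, by strain. Points, numbers and bars are as in the plot of levels. The S rats lie lowest on average, at -2.44 for Ndfip2 and -2.15 for Trim2, and the WKY rats highest, at -1.27 and -0.94.

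The differences of both genes also moved with another background correction, normexp. It was run on the median raw spot and local background signals and not on the processed intensities used elsewhere, so more than the background step differs. With an offset of 50, an added constant larger than most of the processed intensities of these genes, R vs WKY was -0.82 for Ndfip2 (adjusted p = 0.08, limma) and -0.94 for Trim2 (adjusted p = 0.0443). S vs WKY was -0.48 (adjusted p = 0.378) and -0.63 (adjusted p = 0.193). S minus R turned positive, at 0.34 for Ndfip2 and 0.32 for Trim2. The median over the 55 mRNA probes moved as well, from -1.75 to -0.82 in R vs WKY and from -0.11 to 0.30 in S vs R. Trim2 in R vs WKY was the only call of the 6 that remained, beside 24 of 55 mRNA probes called in R vs WKY (43.6%), 18 in S vs WKY (32.7%) and 1 in S vs SHR (1.82%).

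**Figure D4:**
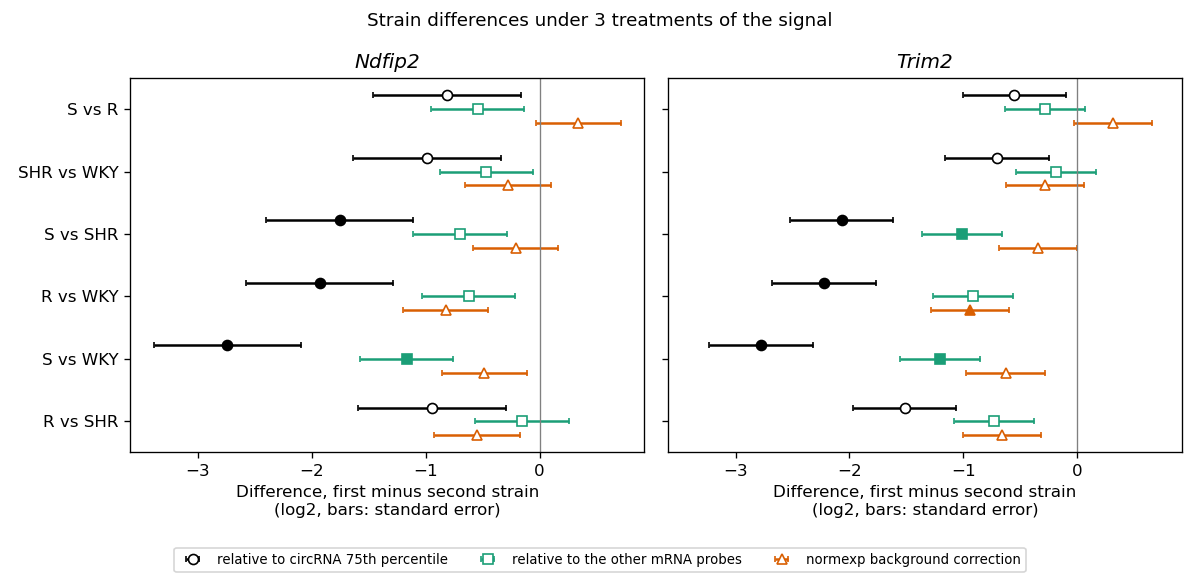
Difference between strains (x axis, log2, first minus second, with its standard error) for 6 pairs of strains (y axis). Circles are relative to the circRNA 75th percentile, squares relative to the other mRNA probes, and triangles after normexp, filled where the adjusted p was under 0.05. Circles are filled for S vs SHR, R vs WKY and S vs WKY, and squares and triangles lie nearer to 0 in these 3 pairs.

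On the main scale the genes parted most on 1 array. Ndfip2 minus Trim2 was -1.44 log2 units on SHR rat 2 and -0.63 to 0.35 on the other 11 arrays. On SHR rat 2 Ndfip2 had a mean intensity of 9.66 with a spot SD of 0.19 log2 units, and Trim2 26.0 with a spot SD of 0.12. Ndfip2 lay only 0.19 log2 units above the detection limit of that array, with 8 of 10 spots above background. After normexp the levels there were -2.25 for Ndfip2 and -1.95 for Trim2, a smaller gap than on the main scale. Exact two-sided permutation p-values for Ndfip2 minus Trim2 on the main scale over the 6 pairs of strains were 0.4 to 0.8 (all 0.8 after Benjamini-Hochberg adjustment). With 3 against 3 rats the smallest possible p is 0.1, so no pair could pass 0.05, and S rats 1 and 3 enter with values not above background. The largest difference of strain means was R minus SHR, at 0.57, with -0.032 ± 0.34 (SD, n = 3) in R and -0.61 ± 0.80 in SHR.

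Of a list of 43 genes of the Nedd4, sodium channel, TRIM and ubiquitin pathways, 3 had a named probe: these genes and Ndfip1, a close relative of Ndfip2 that also recruits Nedd4-family ligases. Ndfip1 was above background on all 12 arrays. It stood at -1.15, -1.01 and -1.03 in S rats 1 to 3, at -1.14, -1.13 and -0.90 in R, at 0.65, -1.05 and 0.41 in SHR, and at 0.021, 0.86 and 0.62 in WKY. WKY and SHR rats 1 and 3 were again high and SHR rat 2 low, while S and R overlapped at means of -1.06 and -1.06.

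Ndfip1 was lower in R than in WKY by a log2 difference of -1.56 (SE 0.46, adjusted p = 0.0209, limma) and lower in S than in WKY, also at -1.56 (adjusted p = 0.0124). S vs SHR was -1.06 (adjusted p = 0.0882). Relative to the other mRNA probes its S vs WKY difference was -0.039 (SE 0.34, adjusted p = 0.909), where Ndfip2 and Trim2 had -1.17 and -1.20. On S rats 1 and 3 Ndfip1 was above background and Ndfip2 and Trim2 were not, so these values are not equally well measured. Ndfip1 and Ndfip2 were not tested against each other. So 3 of 3 listed genes with a probe were called in R vs WKY and in S vs WKY, 2 of 3 in S vs SHR and 0 of 3 in the other pairs, beside 60.0%, 70.9%, 41.8% and 0.00% of the mRNA probes.

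The named probes most like each gene over the 12 arrays were taken by Pearson's r of the levels, among 34 others. For Ndfip2 they were B2m (r = 0.98), the small subunit of MHC class I, Cyp2e1 (r = 0.97) and Hprt1 (r = 0.97), an enzyme of purine salvage. For Trim2 they were Hprt1 (r = 0.95), B2m (r = 0.95) and Cse1l (r = 0.94), an export receptor of the nucleus. The median r over the 34 was 0.83 for Ndfip2 and 0.82 for Trim2, and 19 and 17 of them lay above 0.8. Some probes ran the other way, with a lowest r of -0.89 for Ndfip2 and -0.93 for Trim2. Ndfip2 and Trim2 correlated with each other at r = 0.93, at r = 0.87 after each strain's mean was removed, and at r = 0.12 after the mean of the other mRNA probes was regressed out of both.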

How the data were processed

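Per the file headers, the deposited intensity of each spot came from Agilent Feature Extraction 11.0.1.1, background-subtracted and detrended, with no normalization across arrays. Limma also appears in the submitters' processing notes, with no use given. Spots with outlier flags were left out, log2 intensities were averaged over the spots of a probe, and the 75th percentile over 14145 circRNA probes was subtracted from each array.

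Probes were tested if above background, by more than 50% of spots, on all arrays of at least 1 strain. The 55 mRNA probes passing were fitted apart from circRNAs with limma 3.58.1 in R 4.3.3, 1 mean per strain over 12 arrays (8 residual degrees of freedom), with Benjamini-Hochberg adjustment within each contrast and a threshold of 0.05. The fit was tested on simulated data with independent noise for each probe. That test does not cover a signal shared by the mRNA probes of an array. Symbols came from unversioned accessions in the RefSeq GRCr8 table, which named 39 of 62 probes. Genes named beside the pair were its pathway list and the 3 probes most correlated with each. Arrays with the same scan date in their headers were taken as 1 slide. The deposited circRNA value table holds neither probe and was not used.

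The genes, lists and tests were chosen with earlier results of these data known. The number of arrays limits precision. The p-values measure the spread between arrays, 1 per rat, so differences between rats and between array preparations cannot be told apart. Alternatives covered background, scaling, spot averaging, filters, probes fitted, blocks, a covariate, variance models and left-out rats. Same-numbered rats did not deviate together (18 correlations of -0.54 to 0.52, 4 of them over 0.1).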

Additional observations from a re-analysis of the deposited data

How the results depend on the processing

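Of 398 recomputed differences for 14 results, 326 kept their direction and their side of the threshold, 51 lost a call, 4 gained one and 17 changed sign. S vs WKY kept its call in 26 of 29 alternatives for each gene, and SHR vs WKY kept its direction and had no call in 29 of 29, with sizes that moved with the rat left out (ranges below). Low signal over background in S limits every S comparison. Raising dim values to the detection limit and leaving out S rats 1 and 3 were chosen after seeing the data.

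Normexp gave -0.82 (Ndfip2, R vs WKY), -0.21 and -0.35 (Ndfip2 and Trim2, S vs SHR), -0.48 and -0.63 (S vs WKY), and 0.34 and 0.32 (S vs R, changed sign). Scaling to the other mRNA probes gave -0.62 and -0.92 in R vs WKY and -0.70 for Ndfip2 in S vs SHR, and -0.077 and -0.097 for the difference of differences (S minus R, less SHR minus WKY). The mRNA mean as a covariate gave 0.38 and -1.07 (R vs WKY), 0.19 and -1.10 (S vs SHR), -0.069 and -1.44 (S vs WKY), 0.64 for Ndfip2 in R vs SHR, and -0.20 and -0.031 for the difference of differences.

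Ndfip2 in S vs SHR also lost its call with circRNA median scaling (-1.61) and quantile normalization (-1.52), and with an intensity trend with robust variance (-1.75) and only the compared strains (-1.75, Trim2 -2.07). In S vs SHR the median over the mRNA probes was -1.53 as reported, -1.39 with circRNA median scaling and -1.43 with quantile normalization. With all 12500 probes in 1 fit Ndfip2 lost its calls in S vs SHR (-1.75, adjusted p = 0.0571, limma) and R vs WKY (-1.93, adjusted p = 0.0927). Slide as a block ended the calls of both genes in R vs WKY (-1.83 and -2.14) and S vs SHR (-1.45 and -1.81). Array weights gave calls in R vs SHR (-1.64 and -1.97), where 41 of 55 mRNA probes were called, and -0.41 and -0.072 for the difference of differences. Without S rats 1 and 3 all 4 calls were lost, at -1.66 and -2.22 (S vs SHR) and -2.65 and -2.92 (S vs WKY), with 1 S rat assumed to vary like the other strains. Values raised to the detection limit gave -0.93 and -1.52 (S vs SHR) and 0.0085 for Ndfip2 in S vs R. Apart from added error terms, fewer samples and more probes tested, the cause of these changes was not tested.

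With the rat number as a replicate block, Ndfip2 lost its call in S vs SHR (-1.75, adjusted p = 0.0766, limma), and no other call changed. The rats share only a number.

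Leaving out 1 rat gave ranges for Ndfip2 of -2.27 to -1.68 (R vs WKY), -2.64 to -1.18 (S vs SHR), -1.82 to -0.36 (R vs SHR), -1.57 to -0.11 (SHR vs WKY) and -0.71 to 0.75 (difference of differences), and for Trim2 of -2.42 to -2.06, -2.54 to -1.80, -1.98 to -1.24, -0.98 to -0.24 and -0.31 to 0.43. The filter on all 12 arrays left out both probes, so it gave no value.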
